A study of Mus musculus with 6 samples.

Results

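The hippocampus reads the stress hormone corticosterone through a pair of nuclear receptors and the chaperones that hold them ready, and 8 genes of this system were followed here across 6 mice: the glucocorticoid receptor Nr3c1, the mineralocorticoid receptor Nr3c2, the FK506-binding co-chaperones Fkbp5 and Fkbp4, the chaperone Hsp90ab1 with its co-chaperones Stip1 and Ptges3, and the steroid-activating enzyme Hsd11b1. They were chosen by symbol and matched to Ensembl identifiers; all 8 were found among the 37620 identifiers of the count tables, and all 8 were among the 16432 genes with enough reads to be tested. RNA was sequenced from the hippocampi of 3 miR-17-92 knockout mice and 3 wildtype mice, all C57BL/6 and 13 weeks old, with no litter giving more than 1 mouse. No treatment or stressor is named in the labels. The labels state neither which part of the microRNA cluster was removed nor in which cells, so a loss limited to some cells would be diluted in these whole-tissue values.

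In a resting cell the glucocorticoid receptor sits in the cytoplasm on an HSP90 dimer. Stip1 (also called HOP) hands the receptor from HSP70 to HSP90, and Ptges3 (p23) closes the mature complex that can bind steroid. Fkbp5 (FKBP51) lowers the affinity of the complex for hormone, while Fkbp4 (FKBP52) links it to dynein and favours entry into the nucleus. Fkbp5 is itself a direct target of the activated receptor and forms a feedback loop that ends the response. The mineralocorticoid receptor binds corticosterone with higher affinity, is abundant in hippocampal neurons, and is largely occupied at rest, whereas the glucocorticoid receptor fills during stress and at the daily hormone peak. Hsd11b1 encodes the enzyme that turns inactive 11-dehydrocorticosterone back into corticosterone inside cells.

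The microRNAs of the cluster act by pairing their seed, bases 2 to 8, with sites in the 3′ UTRs of messenger RNAs. Their mature sequences are shown because the seeds decide which of the 8 genes carry a matching site. Sequences are from RefSeq on GRCm38.p6, all from the plus strand of chromosome 14, with the seed in capitals.
miR-17-5p: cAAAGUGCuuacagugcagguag
miR-20a-5p: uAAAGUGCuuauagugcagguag
miR-18a-5p: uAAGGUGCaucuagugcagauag
miR-19a-3p: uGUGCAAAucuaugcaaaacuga
miR-19b-3p: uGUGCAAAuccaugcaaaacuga
miR-92a-3p: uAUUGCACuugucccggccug
miR-17 and miR-20a share 1 seed, miR-19a and miR-19b share another, and miR-18a and miR-92a each have their own. The longest annotated 3′ UTR of each gene (GENCODE M21) was searched for the 7-base complement of each seed. Nr3c1 held 1 site for miR-18a and 1 for miR-19 in 3937 bases, Nr3c2 held 1 for miR-19 in 2482 bases, and Ptges3 held 1 for miR-19 in 1186 bases. The 3′ UTRs of Fkbp5, Fkbp4, Hsp90ab1, Hsd11b1 and Stip1 held none of these letters. A miR-18a site was present in 9.29% and a miR-19 site in 13.1% of the 14518 tested genes whose 3′ UTR is annotated. These shares were not matched for 3′ UTR length. The sites of Nr3c2 and Ptges3 are printed with 11 bases on either side and the site in capitals; both lie on the plus strand of GRCm38, that of Nr3c2 at chr8:77242918-77242946 and that of Ptges3 at chr10:128076809-128076837.
Nr3c2 site: cttacccttggTTTGCACataaaatgtct
Ptges3 site: ccagatttgtaTTTGCACagtcagtatgg
A match of letters is a description and was not tested as a working site.

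Reads assigned to genes ran from 26439693 to 57246827 per library, with the largest number in knockout replicate 3. The cluster's host transcript Mir17hg held 30 to 37 reads in knockout libraries and 36 to 47 in wildtype libraries, which neither checks the genotype labels nor goes against them. All 10 hippocampal neuron markers, among them Prox1 of dentate granule cells and Wfs1 of CA1, were read in every library. Their summed level was 8104 to 9716 CPM (a gene's reads relative to its library's TMM-scaled size) in knockout mice and 8262 to 8459 CPM in wildtype mice. Most of this sum was Camk2a, at 5262 to 6785 CPM in knockout and 5314 to 5723 CPM in wildtype mice. Of 16432 genes tested with edgeR's quasi-likelihood test, 0 (0% of those tested) passed a Benjamini-Hochberg adjusted p of 0.05; 1746 had an unadjusted p under 0.05, and DESeq2 called 163.

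Levels were first ordered per transcript length, as TPM computed from the reads and the summed exon length of each gene. Hsp90ab1 stood far above the rest at 2385 ± 187 TPM in knockout and 2382 ± 94.1 TPM in wildtype mice (SD, n = 3), higher than 99.9% of tested genes. Stip1 came next at 329 ± 66.3 TPM in knockout and 310.0 ± 18.4 TPM in wildtype mice. Nr3c2, at 173 ± 10.6 TPM in knockout and 193 ± 7.13 TPM in wildtype mice, and Fkbp4, at 165 ± 21.7 TPM in knockout and 159 ± 15.3 TPM in wildtype mice, overlapped over the 6 libraries and cannot be ranked against each other. Nr3c1 measured 66.0 ± 2.00 TPM in knockout and 74.1 ± 3.15 TPM in wildtype mice, below Nr3c2 in every library. Ptges3 followed at 49.1 ± 8.26 TPM in knockout and 44.8 ± 1.56 TPM in wildtype mice. Fkbp5, at 33.5 ± 2.38 TPM in knockout and 27.9 ± 2.17 TPM in wildtype mice, and Hsd11b1, at 30.01 ± 4.03 TPM in knockout and 30.04 ± 2.18 TPM in wildtype mice, were the lowest and overlapped. The exon length of Fkbp5, 9468 bases, sums all annotated isoforms, so its level per length is a low estimate. Lengths of the other genes were summed in the same way, so this order and ratios per length depend on it too.

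Between genotypes, both receptors were lower and Fkbp5 was higher in each of the 3 knockout mice than in each of the 3 wildtype mice, while Fkbp4, Hsp90ab1, Stip1, Ptges3 and Hsd11b1 overlapped. None of the 8 genes passed the adjusted threshold with edgeR, against 0% of all genes tested. With DESeq2 Fkbp5 passed, against 0.992% of all genes tested. At an unadjusted p under 0.05 there were 3 of 8, 1 higher and 2 lower, where 10.6% of all genes tested lay under it (5.05% higher in knockout, 5.58% lower). For 3 of 8 the genotypes did not overlap, where 16.6% of all genes tested did not (8.29% higher in knockout, 8.34% lower). The shares among these genes were above those backgrounds, but the genes were picked with earlier results of the same libraries known, so the difference carries no test. Of the 8 log2 folds 6 were positive, with a median of 0.06 against a median of 0.00 over all genes tested. Without knockout replicate 3 the median was -0.03, with 3 positive and 5 negative folds.

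**Figure D1:**
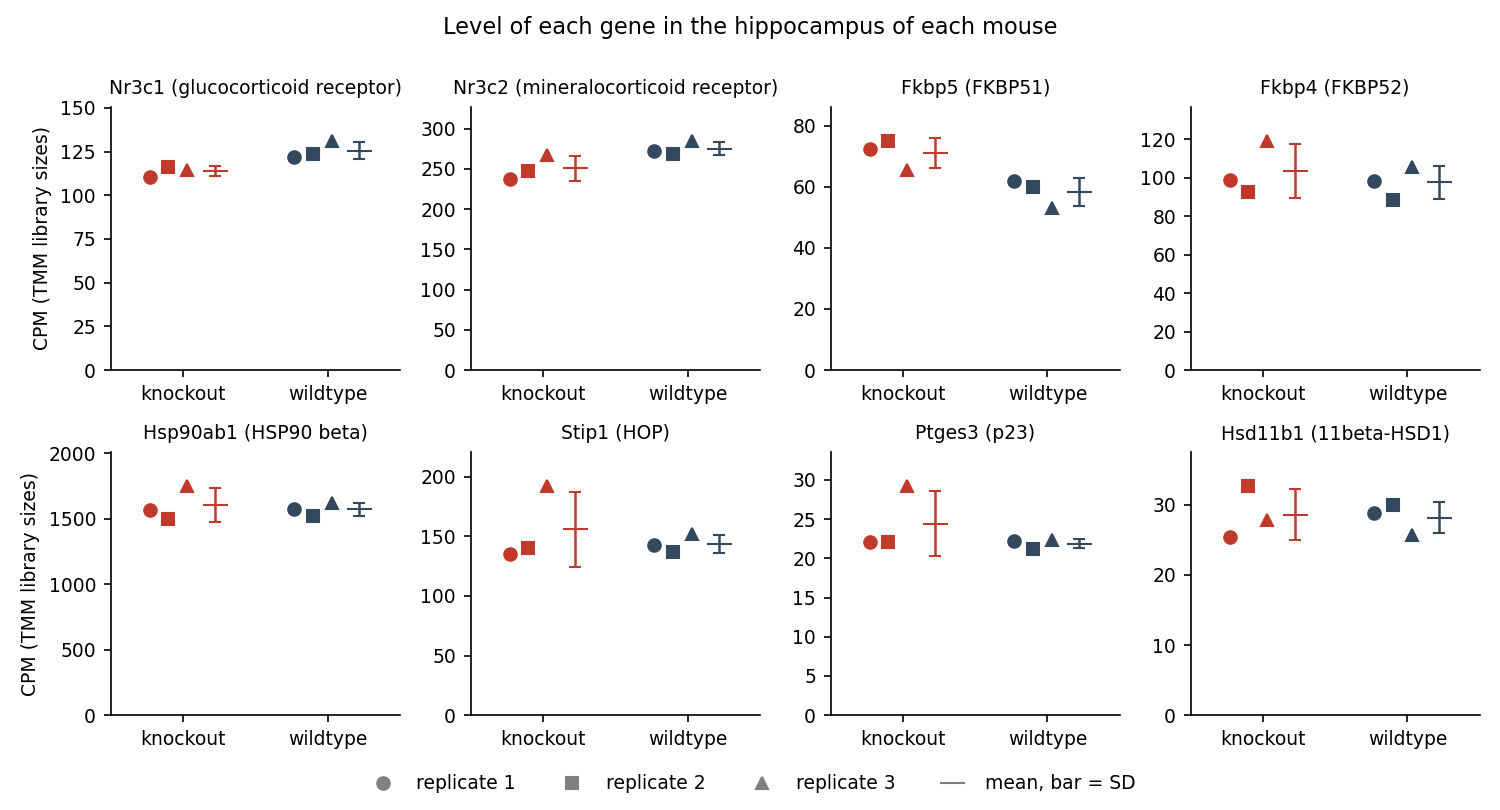
CPM of the 8 genes in each mouse (y axis, starting at 0), with knockout mice in red at the left and wildtype mice in dark blue at the right of each panel; the bar gives mean and SD of 3 mice. Nr3c1 and Nr3c2 lie lower and Fkbp5 higher in all 3 knockout mice, while Stip1 and Ptges3 are set apart by knockout replicate 3 at 192 and 29.2 CPM.

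The glucocorticoid receptor Nr3c1 measured 111, 116 and 114 CPM in knockout replicates 1, 2 and 3, against 122, 124 and 131 CPM in wildtype replicates 1, 2 and 3. The highest knockout mouse lay below the lowest wildtype mouse. The log2 fold was -0.14 (SE 0.05, 95% interval -0.24 to -0.04), with an unadjusted p of 0.0132 and an adjusted p of 0.358 in edgeR's quasi-likelihood test. Leaving out any 1 mouse kept it between -0.16 and -0.11. Nr3c1 is the only one of the 8 genes whose 3′ UTR holds letters matching both the miR-18a and the miR-19 seed. Its 3′ UTR is also the longest of the 8, at 3937 bases. The part of these sites in its level was not tested.

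The mineralocorticoid receptor Nr3c2 measured 237, 248 and 267 CPM in knockout replicates 1, 2 and 3, against 272, 269 and 285 CPM in wildtype replicates 1, 2 and 3. Here too the groups did not overlap, although knockout replicate 3 and wildtype replicate 2 lay next to each other. The log2 fold was -0.13 (SE 0.05, 95% interval -0.25 to -0.02), with an unadjusted p of 0.0293 and an adjusted p of 0.420 in edgeR's quasi-likelihood test. It lay between -0.18 and -0.10 with any 1 mouse left out. Of the 10 hippocampal neuron markers, 7 had a positive and 3 a negative fold, with a median log2 fold of 0.07; their part in the receptor values was not tested. In bulk tissue fewer cells that make a receptor and less receptor RNA per cell cannot be told apart.

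The balance of the receptors was read as the ratio of Nr3c2 to Nr3c1 reads within each library, which needs no library size. It was 2.14, 2.13 and 2.34 in knockout replicates 1, 2 and 3, against 2.24, 2.17 and 2.17 in wildtype replicates 1, 2 and 3. The values interleaved, with a knockout mouse at each end of the range. The mean log2 ratio was 1.14 ± 0.07 in knockout and 1.13 ± 0.03 in wildtype mice (SD, n = 3), a difference of 0.01 with p = 1 in an exact two-sided permutation test, whose smallest possible p with 3 against 3 is 0.1. Per transcript length the ratio was 2.62 ± 0.14 in knockout and 2.60 ± 0.05 in wildtype mice (SD, n = 3). No shift of the receptor balance was detectable with 6 mice, which does not show that there was none.

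Fkbp5, the co-chaperone that dampens the receptor, measured 72.5, 75.0 and 65.6 CPM in knockout replicates 1, 2 and 3, against 61.8, 60.0 and 53.1 CPM in wildtype replicates 1, 2 and 3. Every knockout mouse was above every wildtype mouse, with the closest pair being knockout replicate 3 and wildtype replicate 1. The log2 fold of 0.28 (SE 0.07, 95% interval 0.12 to 0.44) had an unadjusted p of 0.00340 and an adjusted p of 0.291 in edgeR's quasi-likelihood test. DESeq2 gave the same fold an adjusted p of 0.0361, and over all the settings run the adjusted p ranged from 0.0361 to 0.779. Fkbp5 was the only one of the 8 genes called by any of them, and its fold stayed between 0.22 and 0.34 with any 1 mouse left out.

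Several measured features moved beside Fkbp5. Of 12 astrocyte markers 10 had a positive fold; 5 were higher and 1, Sox9, was lower in every knockout mouse, where 8.29% and 8.34% of all genes tested were. DESeq2 called 2 of the 12 higher and 1 lower, and it called 0.992% of all genes tested. The 2 higher were Aqp4 and Slc4a4, with log2 folds of 0.39 and 0.19 (adjusted p = 0.00101 and 0.0165 with DESeq2). The 1 lower was Sox9, a transcription factor of astrocytes named after its values were seen. Its log2 fold was -0.33 (adjusted p = 0.286 with edgeR and 0.0449 with DESeq2). The astrocyte markers' summed level was 6541 to 7071 CPM in knockout and 6035 to 6711 CPM in wildtype mice, so the sums overlapped. Slc1a2 alone measured 3743 to 3899 CPM in knockout and 3404 to 3930 CPM in wildtype mice. The sum therefore mostly reflects the most abundant markers. Of 10 meningeal markers 10 had a positive fold, with sums of 120 to 142 CPM in knockout and 102 to 113 CPM in wildtype mice, which did not overlap. Of these 10, 3 were higher in every knockout mouse and DESeq2 called 2 higher, against 8.29% and 0.992% of all genes tested. Of 10 oligodendrocyte markers 9 had a negative fold (median -0.15), with sums of 3240 to 3486 CPM in knockout and 3399 to 4193 CPM in wildtype mice. Of 8 endothelial and mural markers 7 had a negative fold (median -0.07) and 2 were lower in every knockout mouse, with sums of 304 to 336 CPM in knockout and 320 to 353 CPM in wildtype mice. Of 8 microglial markers 3 had a positive and 5 a negative fold. Of these 8, 1 was higher and 1 lower in every knockout mouse, against 8.29% and 8.34% of all genes tested. DESeq2 called 1 of the 8 higher, against 0.992% called of all genes tested. Of 6 tested choroid plexus markers 4 had a positive and 2 a negative fold. Fkbp5 lies on chromosome 17, where 14.5% of 738 tested genes had an unadjusted p under 0.05, against 10.6% of all genes tested. Among its 20 nearest tested neighbours 4 did, 1 higher and 3 lower, with a median log2 fold of -0.01. The part of these features in the Fkbp5 difference was not tested.

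Fkbp4, the co-chaperone of nuclear transport, measured 98.6, 92.6 and 119 CPM in knockout replicates 1, 2 and 3, against 98.5, 88.5 and 106 CPM in wildtype replicates 1, 2 and 3. The genotypes overlapped, and replicate 3 was the highest in each. The log2 fold was 0.09 (SE 0.10, 95% interval -0.13 to 0.31, adjusted p = 0.778 in edgeR's quasi-likelihood test). The ratio of Fkbp5 to Fkbp4 reads was 0.735, 0.810 and 0.551 in knockout replicates 1, 2 and 3, against 0.628, 0.677 and 0.501 in wildtype replicates 1, 2 and 3. Its mean log2 value differed by 0.21 between knockout, at -0.54 ± 0.29, and wildtype, at -0.74 ± 0.23 (SD, n = 3), with p = 0.4 in the exact two-sided permutation test. Leaving out knockout replicate 3 made the difference 0.37, and leaving out knockout replicate 2 or wildtype replicate 3 made it 0.09 or 0.08, so single mice decide its size.

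**Figure D2:**
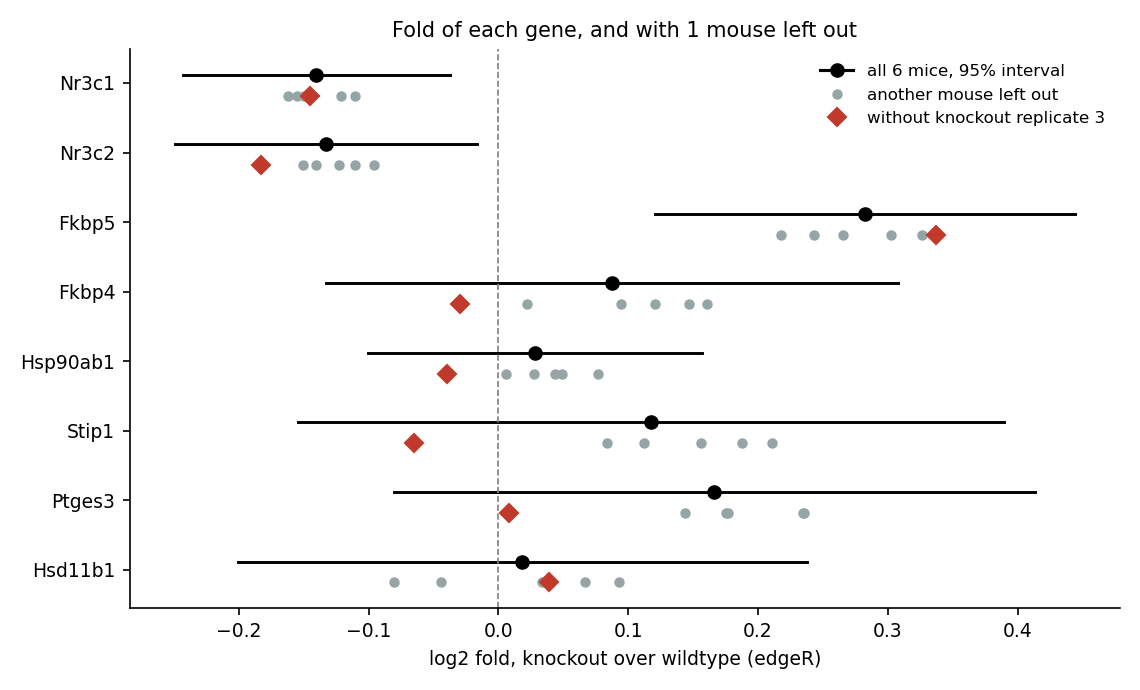
Log2 fold of each gene, knockout over wildtype (x axis): black points and lines give the edgeR estimate and its 95% interval from all 6 mice, small points the fold with 1 mouse left out, and red diamonds the fold without knockout replicate 3. Both receptors, Fkbp5 and Ptges3 keep their side of 0 throughout, Ptges3 at 0.01 without knockout replicate 3. Fkbp4, Hsp90ab1 and Stip1 cross 0 without that mouse.

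The general chaperones did not separate the genotypes, and their spread followed single mice. Hsp90ab1, the constitutive cytosolic HSP90, measured 1568, 1497 and 1750 CPM in knockout replicates 1, 2 and 3, against 1573, 1524 and 1625 CPM in wildtype replicates 1, 2 and 3. Wildtype mice lay inside the range of knockout mice. Its log2 fold was 0.03 (SE 0.06, 95% interval -0.10 to 0.16, adjusted p = 0.893 in edgeR's quasi-likelihood test). With 39427 to 99810 reads per library, the counting error of Hsp90ab1 was at most 0.504%; differences among mice and among library preparations cannot be told apart.

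Stip1, which passes receptors from HSP70 to HSP90, measured 135, 141 and 192 CPM in knockout replicates 1, 2 and 3, against 143, 137 and 152 CPM in wildtype replicates 1, 2 and 3. Knockout replicate 3 stood alone at the top, and the other knockout mice lay within or below the wildtype range. The log2 fold of 0.12 (SE 0.12, 95% interval -0.15 to 0.39, adjusted p = 0.758 in edgeR's quasi-likelihood test) was -0.07 without that mouse.

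Ptges3, the p23 co-chaperone, measured 22.0, 22.0 and 29.2 CPM in knockout replicates 1, 2 and 3, against 22.2, 21.2 and 22.3 CPM in wildtype replicates 1, 2 and 3. The other 5 mice lay between 21.2 and 22.3 CPM, and knockout replicate 3 stood above them. The log2 fold was 0.17 (SE 0.11, 95% interval -0.08 to 0.41, adjusted p = 0.622 in edgeR's quasi-likelihood test), and 0.01 without knockout replicate 3. Ptges3 had 580 to 1666 reads per library, the fewest of the 8 genes in every library except knockout replicate 3, where Hsd11b1 had 1584. Its processed pseudogene Ptges3-ps held 19 to 41 reads in knockout and 12 to 20 in wildtype libraries, so reads that fit both copies make its values somewhat uncertain.

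The mouse that stood out for these chaperones also stood out for other heat shock genes. Among 18 listed targets of heat shock factor, such as Hspa1a, Hsph1 and Dnajb1, knockout replicate 3 was the highest of the 6 libraries for 13. This mouse was the highest for 17.6% of all genes tested. It was also the highest for 13 of 20 glucocorticoid-induced genes, so standing out was not particular to heat shock genes. The heat shock list's median log2 fold was 0.12, with 12 positive and 6 negative folds. Without knockout replicate 3 it was -0.09, with 6 positive and 12 negative. The smallest unadjusted p belonged to Dnajb4, an HSP40 co-chaperone, the small heat shock protein Hspb8 and Chordc1, with log2 folds of 0.24 (SE 0.10), 0.37 (SE 0.16) and 0.31 (SE 0.15). The mean log2 deviation from the mean of the 6 mice, over the 14 targets outside the chaperone list, was -0.27, -0.14 and 0.43 in knockout replicates 1, 2 and 3, against 0.09, -0.14 and 0.02 in wildtype replicates 1, 2 and 3. Knockout replicate 3 was above all wildtype mice and knockout replicate 1 below them. Stip1 followed the list with a Pearson r of 0.95, Ptges3 with 0.89, Hsp90ab1 with 0.88 and Fkbp4 with 0.84, over 6 libraries and 17 list genes, while r was 0.05 for Nr3c1, 0.54 for Nr3c2, -0.27 for Fkbp5 and -0.09 for Hsd11b1. Outside knockout replicate 3 the log2 deviation of Ptges3 lay between -0.12 and -0.05, so its r rests largely on that mouse. The r values describe 6 libraries that share scaling and include the deepest one. The part of this pattern in the chaperone folds was not tested.

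**Figure D3:**
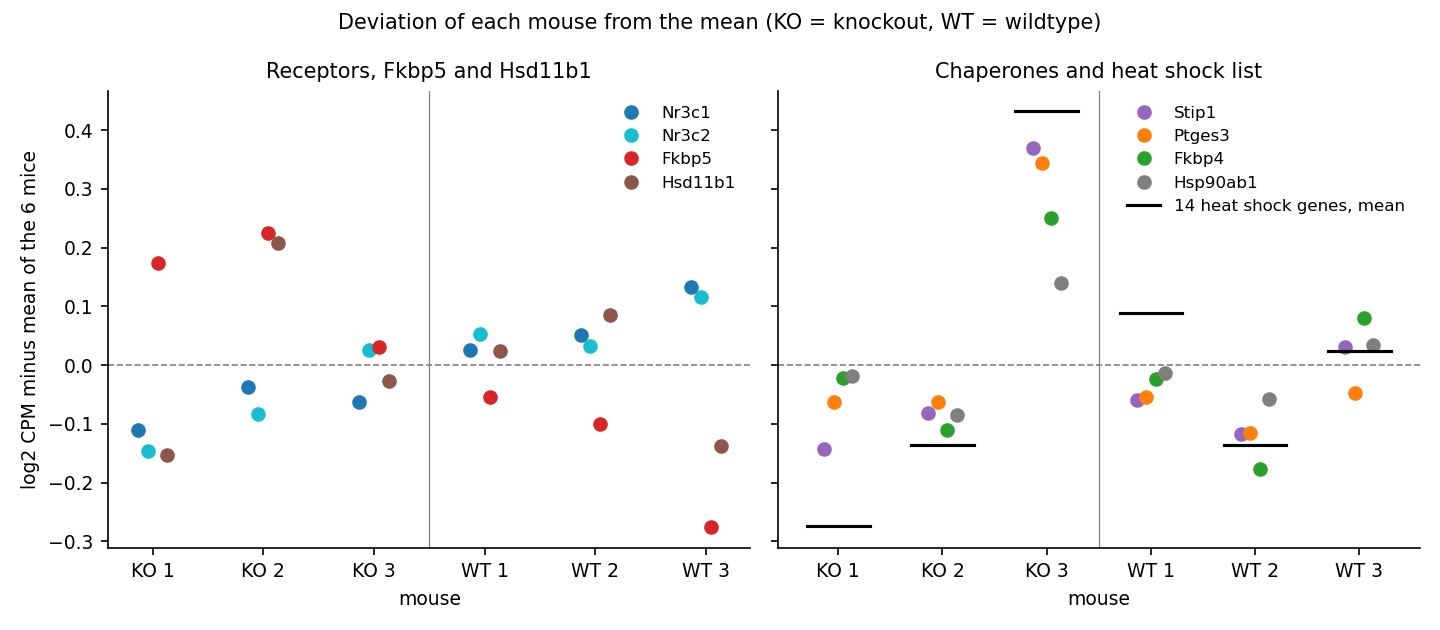
Deviation of each mouse from the mean of the 6 mice in log2 CPM (y axis), for the receptors, Fkbp5 and Hsd11b1 at the left and for Stip1, Ptges3, Fkbp4 and Hsp90ab1 at the right, where black bars give the mean of 14 heat shock genes; knockout mice stand left of the thin line in each panel. At the right, knockout replicate 3 is highest for all 4 chaperones and for the heat shock genes (0.43), while at the left that mouse lies within the range of the others.

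Heat shock factor binds alternating GAA and TTC units, so the promoters were searched for them, since these chaperones moved together. RefSeq promoters, 250 bases before to 50 after the start, were listed for 6 of the 8 genes. Those of Nr3c1 and of the chaperone Hsp90ab1 were not listed and so not searched. The 2-unit motif, GAANNTTC or TTCNNGAA, which reads the same on both strands, was absent from those of Stip1, Ptges3, Fkbp5 and Hsd11b1. It was present in those of Fkbp4 and Nr3c2 and in 15.1% of 32851 promoters of that length. The 3-unit motif, which extends this by NN and a further GAA or TTC in alternation, searched on both strands, was in 0 of the 6 and in 0.603% of all; each match of it also holds the 2-unit motif. The letters of a glucocorticoid response element, GNACA and TGTNC spaced by 3 bases and searched on both strands, were in 0 of the 6 and in 0.475% of all. The Fkbp4 promoter (GRCm38.p6, minus strand, chr6:128438607-128438906) is shown with its 2-unit motif in capitals, which begins 151 bases before the start.
Fkbp4 promoter: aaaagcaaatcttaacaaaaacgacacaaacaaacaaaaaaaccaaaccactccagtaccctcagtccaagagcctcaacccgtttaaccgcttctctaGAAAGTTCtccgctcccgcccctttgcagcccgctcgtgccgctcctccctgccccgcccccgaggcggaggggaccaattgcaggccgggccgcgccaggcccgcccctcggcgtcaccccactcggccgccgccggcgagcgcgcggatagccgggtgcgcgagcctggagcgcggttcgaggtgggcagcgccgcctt
Binding was not measured, and absent letters say nothing about sites elsewhere.

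The stress-inducible HSP90, Hsp90aa1, measured 163, 167 and 203 CPM in knockout replicates 1, 2 and 3, against 155, 159 and 168 CPM in wildtype replicates 1, 2 and 3. Its ratio to Hsp90ab1 reads was 0.104, 0.112 and 0.116 in knockout replicates 1, 2 and 3, against 0.0987, 0.104 and 0.103 in wildtype replicates 1, 2 and 3. The mean log2 ratio was -3.18 ± 0.08 in knockout and -3.29 ± 0.04 in wildtype mice (SD, n = 3), a difference of 0.11 with p = 0.2 in the exact two-sided permutation test. Leaving out knockout replicate 3 made it 0.07.

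RNA of genes for local steroid activation did not differ detectably, and enzyme activity was not measured. Hsd11b1 measured 25.4, 32.7 and 27.8 CPM in knockout replicates 1, 2 and 3, against 28.8, 29.99 and 25.7 CPM in wildtype replicates 1, 2 and 3. Knockout mice held both the lowest and the highest value. The log2 fold was 0.02 (SE 0.10, 95% interval -0.20 to 0.24, adjusted p = 0.963 in edgeR's quasi-likelihood test) and turned to -0.04 without wildtype replicate 3 and to -0.08 without knockout replicate 2. H6pd, which supplies the cofactor for Hsd11b1 in the endoplasmic reticulum, measured 9.77, 10.2 and 9.54 CPM in knockout replicates 1, 2 and 3, against 10.2, 10.9 and 9.85 CPM in wildtype replicates 1, 2 and 3, which overlapped. Hsd11b2, the enzyme that inactivates corticosterone in the kidney, was at the floor with 4, 0 and 8 reads in knockout and 2, 2 and 4 reads in wildtype replicates 1, 2 and 3, where a count of 0 allows up to 3 reads.

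Other genes of the pathway came from lists, and none of them passed the adjusted threshold with edgeR or DESeq2 in the lists for chaperone machinery, steroid metabolism, co-regulators, transport and other steroid receptors. In the chaperone machinery 12 of 22 tested genes had a positive fold and 10 a negative one, with a median of 0.04; without knockout replicate 3 there were 10 positive and 12 negative folds, with a median of -0.02. An unadjusted p under 0.05 was found for 2 of the 22, both higher, which is near the 10.6% of all genes tested (5.05% higher). The smallest unadjusted p belonged to Ppid (cyclophilin 40, a co-chaperone that competes with the FKBPs for HSP90), St13 (an HSP70-interacting protein) and Chordc1, an HSP90-binding protein. Their log2 folds were 0.14 (SE 0.05), 0.15 (SE 0.06) and 0.31 (SE 0.15). Hspa8, the constitutive HSP70, was chosen after its values were seen, since it split across genotypes. It measured 52.0, 144 and 66.1 CPM in knockout replicates 1, 2 and 3, against 150, 145 and 57.9 CPM in wildtype replicates 1, 2 and 3. The 3 high and 3 low mice did not follow genotype, and Hspa8 belongs to a family whose close relatives can share reads.

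Among 22 co-regulators of nuclear receptors 8 folds were positive and 14 negative, with a median of -0.01, and 2 lower had an unadjusted p under 0.05, against 5.58% of all genes tested. The acetyltransferase Crebbp was 1 of these 2, with a log2 fold of -0.14 (SE 0.06). The mediator subunit Med1, at -0.15 (SE 0.07), was not, with an unadjusted p of 0.0536 in edgeR's quasi-likelihood test. In the transport list 6 of 10 tested folds were positive, with a median of 0.02, and without knockout replicate 3 there were 5 positive and 5 negative folds with a median of -0.02. At an unadjusted p under 0.05 were 2 higher and 2 lower, against 5.05% and 5.58% of all genes tested. Xpo1, which exports proteins from the nucleus, had a log2 fold of 0.27 (SE 0.09), Ipo13, an importin that carries the glucocorticoid receptor, had -0.12 (SE 0.04), and the neuronal tubulin Tubb3 had -0.10 (SE 0.04). In 3 of the 10 every knockout mouse was lower and in 0 every knockout mouse was higher, where the backgrounds are 8.34% and 8.29%. Ipo13 was 1 of these 3, at 103 to 107 CPM in knockout against 114 to 115 CPM in wildtype mice.

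In steroid metabolism and export 5 of 13 tested folds were positive and 8 negative, with a median of -0.07, and 0 had an unadjusted p under 0.05. The steroid exporter Abcb1b had a log2 fold of -0.26 (SE 0.13), Srd5a3, a polyprenol reductase of the steroid 5-alpha-reductase family, -0.13 (SE 0.08), and the mitochondrial cholesterol-binding protein Tspo -0.32 (SE 0.21). Of the other steroid receptors the progesterone receptor Pgr had a log2 fold of 0.00 (SE 0.08). The oestrogen receptor Esr1 measured 19.5, 12.5 and 3.72 CPM in knockout replicates 1, 2 and 3, against 4.04, 3.63 and 2.92 CPM in wildtype replicates 1, 2 and 3. Knockout replicates 1 and 2 were high while knockout replicate 3 lay within the wildtype range, and the log2 fold of 1.72 (SE 0.49) had an adjusted p of 0.328 in edgeR's quasi-likelihood test.

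Genes that glucocorticoids induce were tallied as the readout that Fkbp5 belongs to; the list was drawn up with earlier results of these libraries known, so its direction is no independent evidence. Of 20 tested genes 17 had a positive and 3 a negative fold, with a median log2 fold of 0.26, against 0.00 over all genes tested. With edgeR 0 passed and 12 had an unadjusted p under 0.05, 11 higher and 1 lower, where 5.05% and 5.58% of all genes tested did. With DESeq2 6 were called higher and 1 lower, where 0.992% of all genes tested were called. In 10 of the 20 every knockout mouse was higher and in 1 every knockout mouse was lower, where the backgrounds are 8.29% and 8.34%. Gjb6, a connexin of astrocytes, Zbtb16 and Hif3a had the smallest p, with log2 folds of 0.58, 0.44 and 1.03. Knockout replicate 3 was the highest of the 6 libraries for 13 of the 20, where it was for 17.6% of all genes tested. Without knockout replicate 3 the median was 0.15, with 14 positive and 6 negative folds. Fkbp5 differed from Sgk1 and Tsc22d3 in where its high values lay, in that knockout replicate 3 was the lowest knockout mouse for Fkbp5 at 65.6 CPM and the highest for Sgk1 and Tsc22d3 at 115 and 93.5 CPM.

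**Figure D4:**
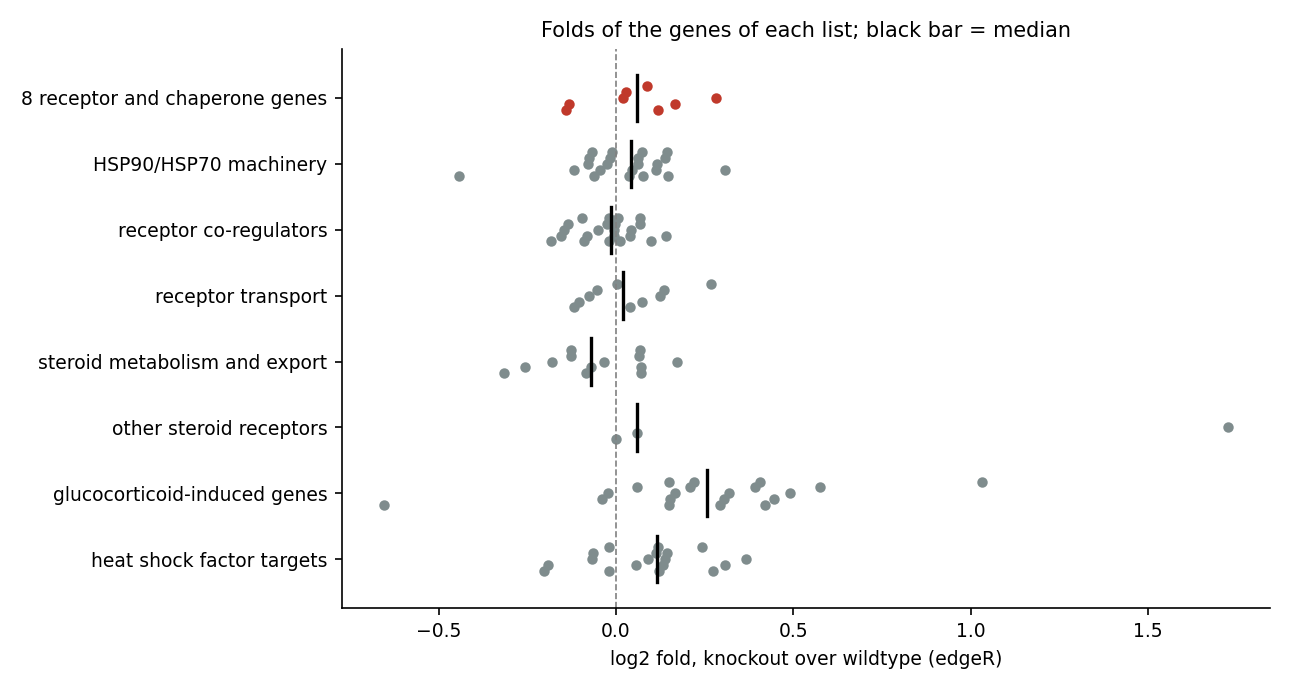
Log2 folds, knockout over wildtype (x axis), of the tested genes of each list, with 1 point a gene and the list's median as a black bar. The 8 receptor and chaperone genes (red, top) lie between -0.14 and 0.28, and the glucocorticoid-induced genes have the highest median, 0.26, of the 8 lists shown.

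The genes whose level ran most like that of a member over the 6 libraries were taken by Pearson r of log2 CPM among 9569 named protein-coding genes of at least 10 CPM, as a description with nothing said of shared function. For Nr3c1 these were Tbc1d31, St8sia5 and Mogs, with r of 0.99, 0.98 and 0.98. Nr3c2 ran most like Pqlc2, Bbs2 and Pla2g7, with r of 0.99, 0.98 and 0.98. Fkbp5 ran most like the corepressor Tle1, the neurotrophin receptor Ntrk2 and Fam171b, with r of 0.99, 0.99 and 0.98. Tle1 measured 82.2, 83.3 and 76.7 CPM in knockout replicates 1, 2 and 3, against 74.1, 71.7 and 64.7 CPM in wildtype replicates 1, 2 and 3. Stip1 ran most like Cacybp, Hsph1 and Ahsa1, with r of 1.00, 0.99 and 0.99. Hsph1 and Ahsa1 are chaperone partners of HSP70 and HSP90, and Hsph1 reached 579 CPM in knockout replicate 3 against 365 to 446 CPM in the other libraries.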

How the data were processed

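Hippocampal RNA of 3 knockout and 3 wildtype mice was sequenced. Each mouse has its own table of unnormalised read counts by gene, as deposited by the authors. The tools named are HTSeq, SAMtools, STAR 2.3.0e, FastQC 0.10.1 and DESeq2, with build mm9, per the submitters' processing notes. What each did, the annotation and the strand setting were "not given in the sources used here"; reads of overlapping or antisense genes may therefore be mixed. The 5 closing rows that name no gene (38.0% to 40.3% as a share of all rows' reads) were left out.

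edgeR 4.0.16 (R 4.3.3; filterByExpr, TMM, quasi-likelihood, genotype only) was fitted to all genes, with Benjamini-Hochberg adjustment over 16432 genes at 0.05; the same script was tested on simulated data. Ratios were tested by exact permutation. Gene names, lengths and 3′ UTRs are from GENCODE M21 on GRCm38, and 32897 of 37620 identifiers matched a name. Of 187 list entries Sts and Nup62 matched none. The members and lists were chosen with earlier results of these data known. Named were the members, Mir17hg, Hsp90aa1, Hsd11b2, up to 3 genes of smallest p per pathway list and the 3 genes most like each of 4 members; 2 genes that this rule names are not reported here. Hspa8, H6pd, Ptges3-ps, Sgk1, Tsc22d3 and the genes given as examples of lists were chosen after their values were seen. Settings tried were DESeq2 1.42.0, limma-voom (limma 3.58.1), edgeR's robust fit, other scalings and filters, offsets for GC content and length, a replicate block, an adjusted p of 0.10, and leaving out each mouse. Figures used matplotlib 3.10.9.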

Additional observations from a re-analysis of the deposited data

Results flagged for a closer look

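Reads that aligned to more than 1 place enter no gene's count. Their share was 21.8% ± 0.71 in knockout and 20.7% ± 0.41 in wildtype libraries (SD, n = 3), without overlap between the genotypes. The two-sided p was 0.1 by exact permutation, which is the lowest value possible with 3 mice a group. The part of such reads in the values of Hsp90ab1 and Ptges3 was not tested.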

How the results depend on the processing

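No edgeR setting called any of the 8 genes, and DESeq2 called 1, Fkbp5 (log2 fold 0.28, adjusted p = 0.0361). Over all genes tested, 62 were called without a filter, 163 with DESeq2, 15 with the robust fit, 18 at an adjusted p of 0.10, and 0 to 17 without 1 library. Of the pathway list genes 5, 7, 4 and 4 were called in these 4 settings, and 0 to 2 without 1 library. Without 1 library each, the median log2 fold of the 8 genes was -0.034 (without knockout replicate 3) to 0.12, and the log2 fold was -0.029 to 0.16 for Fkbp4, -0.039 to 0.077 for Hsp90ab1, -0.065 to 0.21 for Stip1 and -0.080 to 0.093 for Hsd11b1. Fkbp4, Hsp90ab1 and Stip1 were negative only without knockout replicate 3. Hsd11b1 was -0.0017 with limma-voom, -0.037 with GC and length offsets, -0.044 without wildtype replicate 3 and -0.080 without knockout replicate 2. The log2 ratio of Nr3c2 to Nr3c1 differed by -0.038 to 0.029 without 1 library, negative without knockout replicate 3, wildtype replicate 2 (-0.0028) or wildtype replicate 3 (-0.0018). That of Fkbp5 to Fkbp4 differed by 0.081 to 0.37, and that of Hsp90aa1 to Hsp90ab1 by 0.075 to 0.16. The cause was not tested. Nr3c1, Nr3c2, Fkbp5 and Ptges3 kept their direction in every setting run, although Ptges3 was at 0.0082 without knockout replicate 3.

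The replicate numbers pair nothing, since the mice come from different litters. With a replicate block 0 genes and 0 of the 8 were called, and the members' median log2 fold was 0.052. Across genes, the deviations from the group mean correlated at -0.11, -0.03 and -0.18 between mice of number 1, 2 and 3. With 3 mice a group, small differences were not detectable; the SE of the log2 fold was largest for Stip1, at 0.12, and counting error was at most 4.15%, for Ptges3.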
